A study of Mus musculus with 16 samples.

Results

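The 8 genes described here, all of cholesterol synthesis, were measured in mouse embryonic stem cells: they are Hmgcs1, Idi1, Fdft1, Sqle, Lss, Cyp51 and Dhcr7, which encode enzymes, and Insig1, which encodes a brake on the pathway. They were chosen by name, by a rule that uses no measured value, but with earlier results of these data known. All 8 of 8 were found among the 41258 entries of the deposited expression table. Polyadenylated RNA was sequenced from 4 groups of 2 libraries each: Dgcr8 knockout cells (Dgcr8-/-, line ES1) at 48 h of differentiation, the same knockout cells in 2iL at 0 h, wild-type cells (line v65) at 48 h, and wild-type cells in 2iL. All cells were of strain 129/C57BL/6 and were used at passages 9 to 11. 2iL holds inhibitors of MEK and GSK3 with the cytokine LIF and keeps the cells in a naive state, whereas the 48 h cultures were in N2B27 with bFGF and KSR, so time and medium changed together. Each genotype was 1 line, so genotype and line cannot be told apart. The other 8 libraries of the series, of small RNA from wild-type cells, are not used here. The sources used here do not say whether the 2 libraries of a group came from separate cultures, so p-values measure only the spread between these libraries, which may be technical.

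Cholesterol is built from acetyl-CoA in the mevalonate pathway. Early enzymes make mevalonate and isoprenoid units, squalene is then formed and oxidised, and the sterol ring is closed and trimmed to cholesterol. When sterols are scarce, the SCAP protein escorts the membrane-bound transcription factor SREBP2 to the Golgi, where proteases release its active part, which binds sterol regulatory elements in the promoters of these genes. INSIG1 holds SCAP in the endoplasmic reticulum when sterols are plentiful and is itself a target of SREBP. DGCR8 is the RNA-binding partner of the nuclease Drosha and is needed for the release of most microRNA precursors.

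Values are FPKM (fragments per kilobase of transcript, scaled to the mapped fragments of the library), as the authors deposited them. They summed to 475271 to 548453 per library, and 11415 to 12030 entries reached 1 FPKM. Spacing of low values gave depths of 0.902 to 1.335 times that of wild-type 2iL library 1, while the absolute number of reads is unknown. Replicates were correlated at 0.987 to 0.991 across entries on a log2 scale. Dgcr8 itself held 7.80 to 9.33 FPKM in the 4 knockout libraries and 18.3 to 20.9 FPKM in the 4 wild-type libraries. The 6 markers of pluripotent cells passed the filter and summed to between 1349 and 1702 FPKM in every library. Pou5f1 carried most of each sum, and single markers differed in both directions between genotypes. At 48 h Sox2 averaged 174 FPKM in knockout and 30.7 FPKM in wild-type cells, and Nanog 56.4 and 5.35 FPKM. Pou5f1 was also higher in knockout cells at 48 h, whereas Sall4, Utf1 and Lin28a were lower. Lin28a averaged 16.3 FPKM in knockout and 235 FPKM in wild-type cells at 48 h, and 1.099 and 105 FPKM in 2iL. The 5 naive-state markers summed to 242 to 252 FPKM in knockout cells at 48 h, 532 to 556 in knockout cells in 2iL, 28.5 to 29.0 in wild-type cells at 48 h and 517 to 519 in wild-type cells in 2iL. The 4 formative-state markers summed to 240 to 249, 59.3 to 62.9, 633 to 646 and 101 to 111 FPKM in the same groups. By these sums the knockout libraries at 48 h held more naive and less formative marker RNA than the wild-type ones. Dnmt3b carried most of the formative sum at 48 h, averaging 189 FPKM in knockout and 553 FPKM in wild-type cells. Otx2 went the other way, at 41.2 and 38.0 FPKM in knockout and 26.9 and 26.7 FPKM in wild-type cells at 48 h. Of 8 fibroblast and feeder markers 2 passed the filter, and their sum was 18.2 to 18.3 FPKM in knockout and 11.6 to 12.2 FPKM in wild-type cells at 48 h, against 1.94 to 2.18 and 2.55 to 2.75 FPKM in 2iL; Dcn and Thy1 carried these sums, and Col3a1, Lum and Postn were below 0.1 FPKM in every group. Dcn held 11.9 and 12.6 FPKM in knockout and 2.22 and 1.74 FPKM in wild-type cells at 48 h, and at most 0.0372 FPKM in 2iL. Thy1 held 5.84 and 5.35 FPKM in knockout and 9.20 and 9.26 FPKM in wild-type cells at 48 h, against 1.47 and 1.39 FPKM and 2.23 and 2.60 FPKM in 2iL. Of 6 primitive endoderm markers 1 passed, and their sum was at most 2.89 FPKM in any library, with Sox17 below 0.1 FPKM in every group. Of 4 neuroectoderm markers 3 passed, with sums of 21.5 to 23.2 FPKM in knockout and 25.0 to 25.7 FPKM in wild-type cells at 48 h. In 2iL the sums were 6.52 to 6.57 and 9.92 to 9.93 FPKM. Nes carried most of the 48 h sums, averaging 13.8 FPKM in knockout and 21.7 FPKM in wild-type cells. Pax6 went the other way, averaging 6.42 FPKM in knockout and 1.22 FPKM in wild-type cells at 48 h, against 3.48 and 2.14 FPKM in 2iL. Of 4 mesoderm and streak markers 2 passed, and their sum was at most 7.74 FPKM. The part of these markers in the results was not tested.

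The promoters of the genes were read from RefSeq (GRCm38.p6, 250 bases before to 50 after each start), which held 8 starts of 6 of the 8 genes; Sqle and Fdft1 are named only. They are shown because the letters shared by these promoters can be set beside genes that did and did not move together in the libraries. A sterol regulatory element, searched as TCACNCCAC on both strands, was found once, 137 to 129 bases before the Hmgcs1 start. It was thus found in 1 of 6 genes, and the same letters occurred in 1.24% of 32851 promoters and 1.44% of 27025 genes. The CCAAT box bound by NF-Y (CCAAT, or ATTGG on the other strand) was found in 6 of 6 genes, against 41.1% of the 27025 genes in the table. The GC box (GGGCGG, or CCGCCC) also occurred in 6 of 6, against 38.2% of genes. The E-box CACGTG occurred in Dhcr7 and Insig1 only, 2 of 6, against 8.09% of genes. No match to one motif overlapped a match to another. Among the other enzymes of the pathway described further on, 11 matched, of which 10 held a CCAAT box, 10 a GC box and 2 an E-box. Of these 11, 0 held the letters TCACNCCAC. A match is a description of letters, and a missing match says only that these letters are not in this window. Capitals mark the sterol regulatory element, CCAAT or ATTGG and CACGTG; the stretches are 250 bases up to the start for Hmgcs1, bases −230 to −91 from the start for Insig1 and the last 100 bases before it for the others, 5′ to 3′ on the strand of the gene.
Hmgcs1, chr13:119690101-119690350, plus strand: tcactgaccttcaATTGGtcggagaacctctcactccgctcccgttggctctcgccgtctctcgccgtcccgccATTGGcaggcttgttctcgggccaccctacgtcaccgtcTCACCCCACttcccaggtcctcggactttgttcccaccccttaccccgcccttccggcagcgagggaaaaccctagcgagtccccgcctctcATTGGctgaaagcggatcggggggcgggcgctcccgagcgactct
Idi1, chr13:8885506-8885605, plus strand: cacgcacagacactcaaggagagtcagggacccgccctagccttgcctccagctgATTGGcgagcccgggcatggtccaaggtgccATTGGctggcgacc
Lss, chr10:76531505-76531604, plus strand: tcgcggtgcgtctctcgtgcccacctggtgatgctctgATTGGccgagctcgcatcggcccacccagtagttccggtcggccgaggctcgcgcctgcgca
Cyp51, chr5:4104698-4104797, minus strand: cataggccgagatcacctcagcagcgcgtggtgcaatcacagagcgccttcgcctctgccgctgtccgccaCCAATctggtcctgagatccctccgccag
Dhcr7 (the third start), chr7:143830114-143830213, plus strand: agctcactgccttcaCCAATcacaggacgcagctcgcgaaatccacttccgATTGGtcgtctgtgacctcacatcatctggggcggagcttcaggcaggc
Insig1, chr5:28071182-28071321, plus strand: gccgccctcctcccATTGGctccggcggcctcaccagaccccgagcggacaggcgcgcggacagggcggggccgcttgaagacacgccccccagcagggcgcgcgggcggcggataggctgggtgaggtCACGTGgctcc
The Hmgcs1 stretch holds the only match to the letters searched for the sterol regulatory element, together with 3 ATTGG boxes. Insig1 holds 1 ATTGG box far from its E-box. The Lss stretch runs to base 76531604, whereas the span given below for Lss begins at base 76531565. The RefSeq start used for Lss thus lies inside that span, and so does the end of the stretch. Other forms of the sterol regulatory element were not searched.

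**Figure D1:**
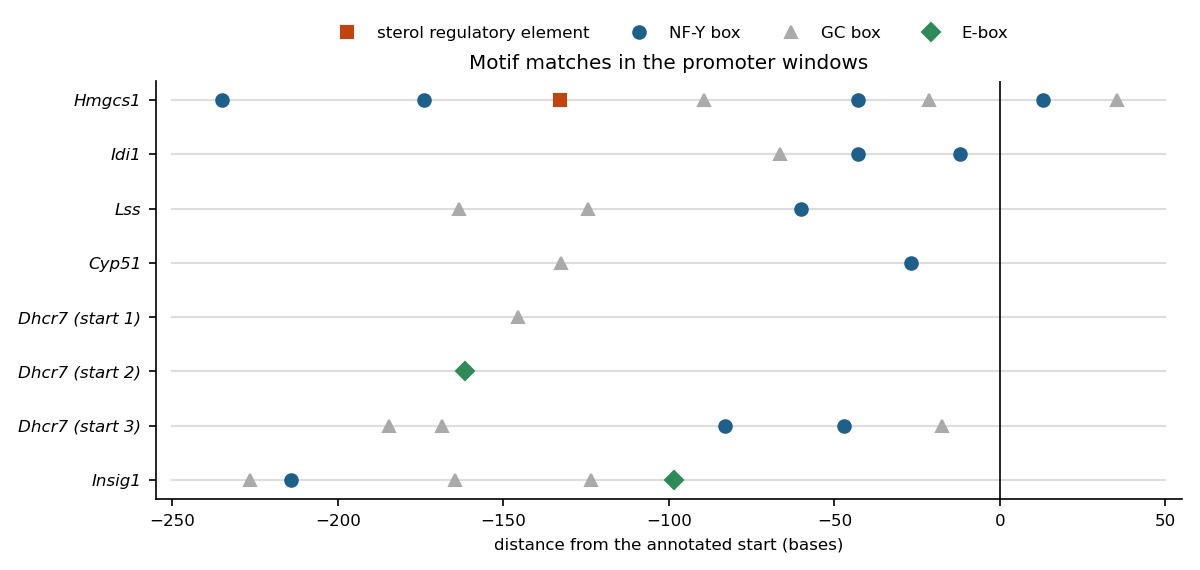
Positions of the 4 searched motifs in the promoters of the 6 matched genes. The x axis is the distance from the start in bases and each row is 1 start. All 6 genes hold a CCAAT box and a GC box. Hmgcs1 alone holds the letters searched for the sterol regulatory element, at 137 to 129 bases before its start.

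All 8 genes passed the filter, which asked for 1 FPKM or more in 2 or more libraries. Each gene is described by its FPKM in every library, replicate 1 before replicate 2, and by differences on the log2(FPKM + 1) scale from limma, fitted on 13172 entries with Benjamini-Hochberg adjusted p-values over all of them. A gene is called changed below an adjusted p of 0.05. Differences are 48 h minus 2iL or knockout minus wild type, and the change at 48 h in knockout cells minus that in wild-type cells is called the difference of changes. In bulk RNA, fewer cells of a type and less RNA per cell cannot be told apart.

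In wild-type cells 5 of the 8 genes rose at 48 h against 2iL, where 30.9% of all entries were called higher. Of these 5 only Idi1 rose in knockout cells, where 26.5% of all entries were called higher. The calls of Idi1 ended under several alternatives, given with that gene. Hmgcs1, at the entry to the pathway, stood at 84.7 ± 1.3 FPKM in knockout cells and 177.0 ± 1.4 FPKM in wild-type cells at 48 h (SD, n = 2 each). The 7 enzymes were all lower in knockout than in wild-type cells at 48 h, by 0.25 to 1.55 on the log2 scale. In that comparison 38.5% of all entries were called lower and 33.3% higher. Insig1 was lower at 48 h than in 2iL in both genotypes, by 0.53 in knockout and 0.52 in wild-type cells.

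**Figure D2:**
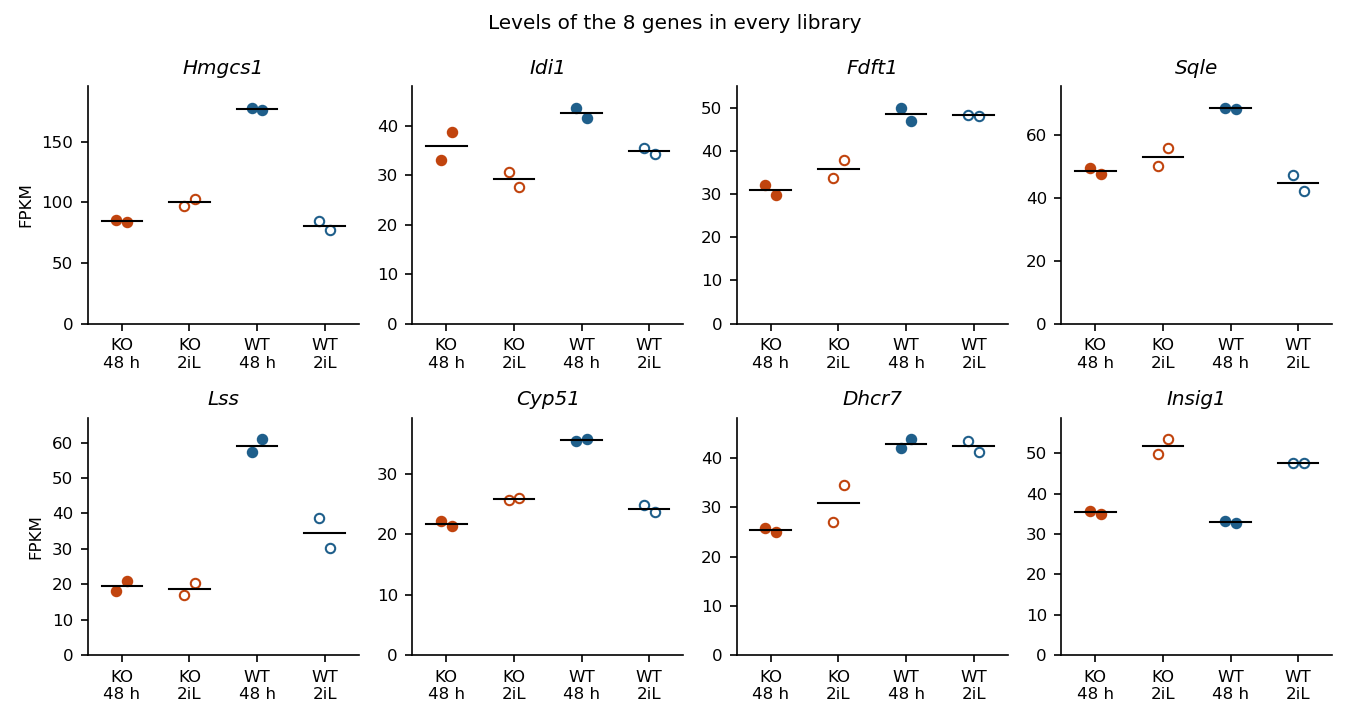
FPKM of the 8 genes in each library. Each panel is 1 gene, the y axis is FPKM from 0, each point is a library (filled at 48 h, open in 2iL; knockout orange, wild type blue) and the bars mark group means; the 2 wild-type libraries at 48 h stand above all others for Hmgcs1 (178 and 176 FPKM), Idi1, Sqle, Lss and Cyp51, and lowest for Insig1 (33.3 and 32.8 FPKM).

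Hmgcs1 (ENSMUSG00000093930, chr13:119690351-119708260, GRCm38) encodes the cytosolic synthase that makes HMG-CoA at the start of the pathway. It held 85.6 and 83.7 FPKM in knockout cells at 48 h, 96.9 and 102.7 FPKM in knockout cells in 2iL, 178 and 176 FPKM in wild-type cells at 48 h, and 84.2 and 77.2 FPKM in wild-type cells in 2iL. The wild-type libraries at 48 h lay far above the rest, and knockout cells at 48 h overlapped wild-type cells in 2iL. In knockout cells Hmgcs1 fell by 0.23 at 48 h (SE 0.05, limma adjusted p = 0.00877), a call that ended without replicate 2 at 48 h (adjusted p = 0.0552). In wild-type cells it rose by 1.12 (SE 0.05, limma adjusted p = 2.9e-06), a 2.18-fold rise in FPKM + 1. Between genotypes it was higher in knockout cells in 2iL by 0.30 (limma adjusted p = 0.00173), which was 0.50 with quantile scaling. At 48 h it was lower in knockout cells, with a difference of −1.05 (limma adjusted p = 2.5e-06). The difference of changes was −1.36 (SE 0.07, limma adjusted p = 1.9e-05), the largest among the 8 genes.

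Idi1 (ENSMUSG00000058258, chr13:8885606-8892396) encodes the isomerase that interconverts the isoprenoid units isopentenyl and dimethylallyl diphosphate; a paralog, Idi2, lies beside it. It held 33.1 and 38.7 FPKM in knockout cells at 48 h, 30.6 and 27.6 FPKM in knockout cells in 2iL, 43.6 and 41.6 FPKM in wild-type cells at 48 h, and 35.4 and 34.2 FPKM in wild-type cells in 2iL. Levels were highest in wild-type cells at 48 h and lowest in knockout cells in 2iL, with knockout cells at 48 h overlapping wild-type cells in 2iL. The 48 h change was 0.29 in knockout cells (SE 0.08, limma adjusted p = 0.0238) and 0.28 in wild-type cells (SE 0.08, limma adjusted p = 0.0218). Their difference was 0.01 (SE 0.12, limma adjusted p = 0.976), with a 95% interval of −0.27 to 0.28. Idi1 was lower in knockout cells by the same −0.25 in 2iL (limma adjusted p = 0.0317) and at 48 h (limma adjusted p = 0.0305). All 4 calls ended with no filter on low values (adjusted p 0.0502 to 0.0706) and with median-ratio scaling (adjusted p 0.052 to 0.107). With quantile scaling the genotype differences were −0.15 in 2iL (adjusted p = 0.204) and −0.18 at 48 h (adjusted p = 0.133). The calls also ended when single libraries were left out. Within knockout cells the change was 0.18 without replicate 2 at 48 h (adjusted p = 0.127), and the call also ended without replicate 2 in 2iL (adjusted p = 0.115). Within wild-type cells it ended without any 1 of the 4 libraries (adjusted p 0.0526 to 0.106). The 2iL genotype call ended without knockout replicate 2 (adjusted p = 0.153) or either wild-type library (0.126 and 0.0742). At 48 h the genotype difference was −0.13 without knockout replicate 1 (adjusted p = 0.18) and −0.36 without knockout replicate 2, and the call ended without either wild-type library (0.132 and 0.0614).

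Fdft1 (ENSMUSG00000021273, chr14:63145150-63181687) encodes squalene synthase, the first step committed to sterols. Its annotated span shares 774 bases with Ctsb and 57 with the microRNA gene Gm51283, and the sources used here do not say how shared or antisense reads were counted. Fdft1 held 32.1 and 29.9 FPKM in knockout cells at 48 h, 33.8 and 38.0 FPKM in knockout cells in 2iL, 50.1 and 47.0 FPKM in wild-type cells at 48 h, and 48.4 and 48.3 FPKM in wild-type cells in 2iL. All 4 knockout libraries lay below all 4 wild-type libraries, and the wild-type groups overlapped. It was lower in knockout cells in 2iL by a log2 difference of −0.42 (SE 0.07, limma adjusted p = 0.00121) and at 48 h by −0.63 (limma adjusted p = 1.1e-04). The 48 h change was −0.20 in knockout cells (limma adjusted p = 0.041), and this call ended when any library except knockout 2iL replicate 1 was left out (adjusted p 0.0537 to 0.198); without knockout 2iL replicate 2 the value was −0.12. In wild-type cells the change was 0.01 (limma adjusted p = 0.953; 95% interval −0.15 to 0.17). The change in knockout minus that in wild-type cells was −0.21 (SE 0.10, limma adjusted p = 0.12; 95% interval −0.44 to 0.02), and −0.29 without knockout 2iL replicate 1, where it was called (adjusted p = 0.0328).

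Sqle (ENSMUSG00000022351, chr15:59315092-59331193) encodes squalene monooxygenase, which oxidises squalene before the ring is closed. It held 49.4 and 47.7 FPKM in knockout cells at 48 h, 50.1 and 55.8 FPKM in knockout cells in 2iL, 68.7 and 68.2 FPKM in wild-type cells at 48 h, and 47.2 and 42.3 FPKM in wild-type cells in 2iL. The wild-type libraries at 48 h were highest and those in 2iL lowest, with both knockout groups between them and no overlap between neighbours. In wild-type cells Sqle rose by 0.61 (SE 0.07, limma adjusted p = 2.5e-04), whereas the change in knockout cells was −0.12 (limma adjusted p = 0.191). It was lower in knockout than in wild-type cells at 48 h (log2 difference −0.49, limma adjusted p = 4.9e-04). In 2iL it was higher in knockout cells by 0.24 (limma adjusted p = 0.019), but the call ended without knockout replicate 2 (0.16, adjusted p = 0.0924), without wild-type replicate 2 (0.16, adjusted p = 0.11) and when only those groups were fitted (adjusted p = 0.0622). For the difference of changes the value was −0.73 (SE 0.10, limma adjusted p = 0.00105).

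Lss (ENSMUSG00000033105, chr10:76531565-76557139) encodes lanosterol synthase, which closes the sterol ring. A long noncoding gene, 4930483K19Rik, shares 11269 bases of its span, and how shared or antisense reads were counted is not known. Lss held 18.2 and 20.9 FPKM in knockout cells at 48 h, 16.9 and 20.5 FPKM in knockout cells in 2iL, 57.3 and 61.0 FPKM in wild-type cells at 48 h, and 38.6 and 30.2 FPKM in wild-type cells in 2iL. The knockout groups overlapped and lay below every wild-type library. In knockout cells the change at 48 h was 0.06 (SE 0.13, limma adjusted p = 0.722), and in wild-type cells Lss rose by 0.78 (limma adjusted p = 0.00199). It was lower in knockout cells in 2iL (log2 difference −0.84, limma adjusted p = 0.00112) and at 48 h (−1.55, limma adjusted p = 3.5e-05), where FPKM + 1 stood at 0.34 of the wild-type level. The 48 h difference was the largest between genotypes among the 8 genes. Set against wild type, the knockout change differed by −0.71 (SE 0.19, limma adjusted p = 0.0202). That call ended without knockout replicate 1 at 48 h (adjusted p = 0.0661), knockout replicate 2 in 2iL (0.0579) or wild-type replicate 2 at 48 h (0.0646), and with no filter on low values (0.0558).

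Cyp51 (ENSMUSG00000001467, chr5:4080674-4104697) encodes lanosterol demethylase, a cytochrome P450. It held 22.1 and 21.3 FPKM in knockout cells at 48 h, 25.7 and 26.0 FPKM in knockout cells in 2iL, 35.5 and 35.8 FPKM in wild-type cells at 48 h, and 24.8 and 23.6 FPKM in wild-type cells in 2iL. Its 4 groups did not overlap, with wild-type cells at 48 h highest and knockout cells at 48 h lowest. Cyp51 fell by 0.24 in knockout cells (SE 0.05, limma adjusted p = 0.00443) and rose by 0.54 in wild-type cells (limma adjusted p = 6.0e-05). At 48 h it was lower in knockout cells (log2 difference −0.69, limma adjusted p = 1.1e-05). In 2iL the difference was 0.09 (limma adjusted p = 0.125), which became 0.15 with quantile scaling and 0.15 with median-ratio scaling, both called (adjusted p 0.0195 and 0.0207). The 48 h changes of the genotypes differed by −0.78 (SE 0.07, limma adjusted p = 1.3e-04).

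Dhcr7 (ENSMUSG00000058454, chr7:143823167-143848410) encodes a reductase that makes cholesterol from its dehydrocholesterol precursor. It held 25.9 and 25.0 FPKM in knockout cells at 48 h, 27.1 and 34.6 FPKM in knockout cells in 2iL, 42.0 and 43.9 FPKM in wild-type cells at 48 h, and 43.5 and 41.3 FPKM in wild-type cells in 2iL. All knockout libraries lay below all wild-type libraries, the wild-type groups overlapped, and the 2 knockout 2iL libraries differed most. Dhcr7 was lower in knockout cells in 2iL (log2 difference −0.45, SE 0.10, limma adjusted p = 0.00618) and at 48 h (−0.73, limma adjusted p = 4.6e-04). The 2iL difference was −0.28 without knockout 2iL replicate 1. The 48 h change was −0.26 in knockout cells (limma adjusted p = 0.0733) and 0.02 in wild-type cells (limma adjusted p = 0.901; 95% interval −0.22 to 0.26). As the difference of changes, the fit gave −0.28 (SE 0.14, limma adjusted p = 0.167; 95% interval −0.62 to 0.06). The knockout change was called with quantile scaling (−0.28, adjusted p = 0.0314) and with median-ratio scaling (−0.30, adjusted p = 0.0251). Without knockout 2iL replicate 1 the knockout change was −0.43 (adjusted p = 0.00218) and the difference of changes −0.45 (adjusted p = 0.00553), both called. Without knockout 2iL replicate 2 the same values were −0.09 and −0.11.

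Insig1 (ENSMUSG00000045294, chr5:28071412-28078662) is the one regulator among the 8 genes. The long noncoding gene Gm35223 shares 7251 bases with it. Insig1 held 35.7 and 35.0 FPKM in knockout cells at 48 h, 49.9 and 53.6 FPKM in knockout cells in 2iL, 33.3 and 32.8 FPKM in wild-type cells at 48 h, and 47.7 in both wild-type libraries in 2iL. The 4 libraries at 48 h lay below the 4 in 2iL, in both genotypes. It fell by 0.53 in knockout cells (SE 0.05, limma adjusted p = 9.3e-05) and by 0.52 in wild-type cells (limma adjusted p = 7.1e-05). Between the genotypes the 48 h changes differed by −0.02 (SE 0.07, limma adjusted p = 0.858), with a 95% interval of −0.17 to 0.14. Between genotypes the difference was 0.11 in 2iL (limma adjusted p = 0.0667) and 0.10 at 48 h (limma adjusted p = 0.0989). With median-ratio scaling these became 0.17 (adjusted p = 0.00431) and 0.16 (adjusted p = 0.00501), both called, and the 2iL difference was 0.24 with quantile scaling. At 48 h it was also called without either knockout 2iL library (adjusted p 0.0495 and 0.0494), and in 2iL without replicate 1 of knockout cells (0.16, adjusted p = 0.0205).

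**Figure D3:**
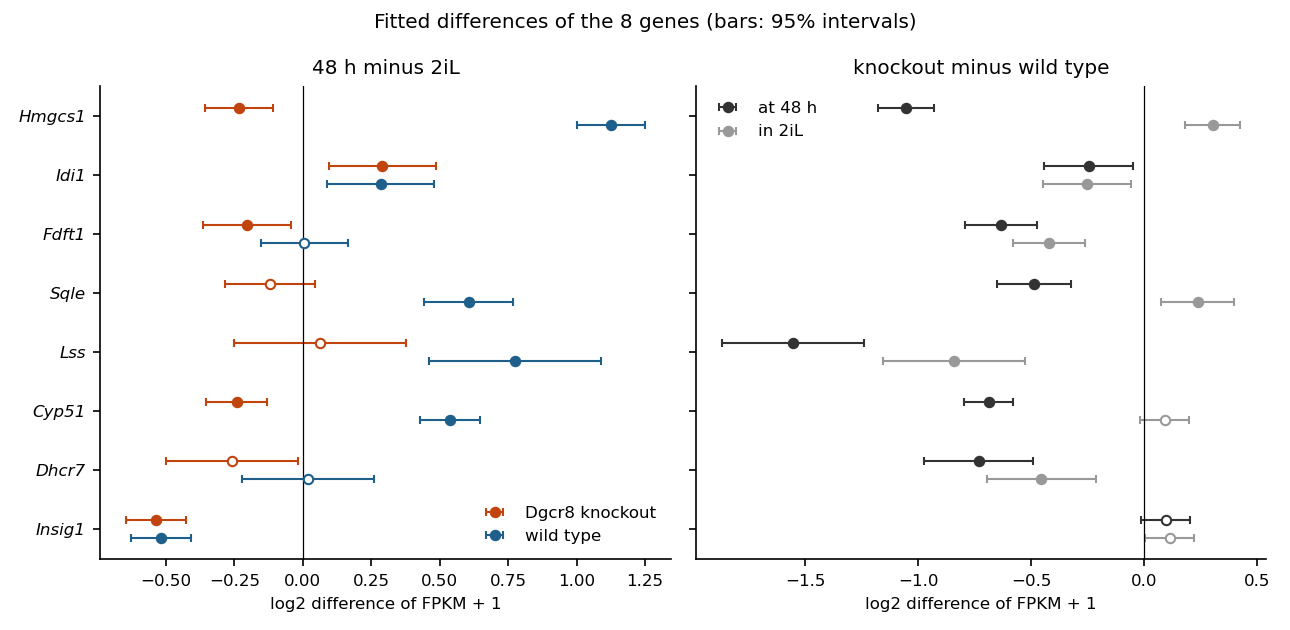
Log2(FPKM + 1) differences of the 8 genes in the comparisons, with 95% intervals from limma; filled points are called below an adjusted p of 0.05 and open points are not. Hmgcs1 stands at −0.23 in knockout and 1.12 in wild-type cells for 48 h minus 2iL, while Insig1 stands at −0.53 in knockout and −0.52 in wild-type cells; the right panel shows knockout minus wild type, below 0 for all 7 enzymes at 48 h.

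Counts of called genes are read beside the share called among all 13172 entries, since many entries were called in each comparison. For 48 h against 2iL in knockout cells 26.5% of entries were called higher and 21.8% lower, and 1 of the 8 genes (Idi1) rose, 4 fell and 3 were not called. The number that fell was 2 without knockout 48 h replicate 2. In wild-type cells 30.9% of entries were called higher and 25.6% lower, against 5 of the 8 genes higher, Insig1 lower, and Fdft1 and Dhcr7 not called. In 2iL 30.6% of entries were called higher in knockout than in wild-type cells and 32.8% lower, while 2 genes (Hmgcs1 and Sqle) were higher, 4 were lower and 2 were not called. The number higher was 1 without knockout replicate 2 or wild-type replicate 2, and with quantile or median-ratio scaling 4 genes were higher and 3 lower. At 48 h 33.3% of entries were called higher in knockout cells and 38.5% lower, against 0 genes higher, 7 lower and Insig1 not called. For the difference of changes 21.1% of entries were called positive and 21.7% negative, against 0 and 4 of the 8 genes (Hmgcs1, Sqle, Lss and Cyp51).

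Median log2 differences of the 8 genes were −0.22 in knockout and 0.41 in wild-type cells for 48 h minus 2iL, against 0.03 and 0.03 over all entries. Between genotypes they were −0.08 in 2iL and −0.66 at 48 h, against −0.02 and −0.05 over all entries. The difference of changes had a median of −0.49, against −0.01. These comparisons share libraries, so they are not independent of each other.

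Summed over the 8 genes, the FPKM were 302 and 302 in knockout cells at 48 h, 331 and 359 in knockout cells in 2iL, 509 and 506 in wild-type cells at 48 h, and 369.9 and 345 in wild-type cells in 2iL. The sum was highest in the wild-type libraries at 48 h, and the 2iL groups of both genotypes overlapped. Hmgcs1 was the most abundant of the 8 in every library. Lss was the least abundant in the 4 knockout libraries, Insig1 in wild-type cells at 48 h and Cyp51 in wild-type cells in 2iL.

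A ratio within a library needs no scaling between libraries. The summed FPKM of the 7 enzymes was 7.45 and 7.63 times that of Insig1 in knockout cells at 48 h, 5.63 and 5.70 times in knockout cells in 2iL, 14.3 and 14.4 times in wild-type cells at 48 h, and 6.75 and 6.23 times in wild-type cells in 2iL. Hmgcs1 over Insig1 was 2.40 and 2.39 in knockout cells at 48 h, 1.94 and 1.92 in knockout cells in 2iL, 5.35 and 5.37 in wild-type cells at 48 h, and 1.77 and 1.62 in wild-type cells in 2iL. Both ratios were higher at 48 h than in 2iL in each genotype, with no overlap, and highest in wild-type cells at 48 h. In knockout cells the numerators did not rise. There the sum of the 7 enzymes was 266 and 267 FPKM at 48 h and 281 and 305 FPKM in 2iL, while Insig1 averaged 35.4 and 51.7 FPKM. With 2 libraries a group these ratios are given as values, without a test.

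The other enzymes of the pathway were described from a list of 14, of which 13 were tested and Mvd was not matched. Counts of this and the lists below are read beside the shares of all entries. For 48 h against 2iL 26.5% were called higher and 21.8% lower in knockout cells, and 30.9% and 25.6% in wild-type cells. In knockout against wild-type cells 30.6% were higher and 32.8% lower in 2iL, and 33.3% and 38.5% at 48 h. For the difference of changes 21.1% were positive and 21.7% negative. At 48 h 12 of the 13 were lower and 1 higher in knockout than in wild-type cells, with a median of −0.83. Msmo1, a sterol methyl oxidase, averaged 28.3 FPKM in knockout and 123 FPKM in wild-type cells at 48 h (log2 difference −2.08, limma adjusted p = 4.9e-07). Pmvk, which phosphorylates phosphomevalonate, averaged 19.9 FPKM in knockout and 68.1 FPKM in wild-type cells (−1.72, limma adjusted p = 3.2e-07). The exception was Ebp, a sterol isomerase, at 29.1 FPKM in knockout and 8.90 FPKM in wild-type cells (1.60, limma adjusted p = 9.0e-06). With the 7 member enzymes, 19 of 20 synthesis enzymes were lower in knockout cells at 48 h and 1 was higher. The 12 lower and 1 higher of the list of 13 were also counted under every alternative tried.

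In 2iL the same list held 2 enzymes higher in knockout cells, among them Ebp (0.66), and 9 lower, with a median of −0.45. Tm7sf2, a sterol reductase, averaged 10.7 FPKM in knockout and 25.4 FPKM in wild-type cells in 2iL (log2 difference −1.17, limma adjusted p = 1.2e-05), and Msmo1 differed by −0.84. For 48 h against 2iL in wild-type cells 9 rose and 1 fell, with a median of 0.58. Hsd17b7, a sterol ketoreductase, rose by 1.03 and Fdps, which makes farnesyl diphosphate, by 1.02, while Ebp fell by 2.25 (limma adjusted p = 2.8e-06). In knockout cells 3 rose and 7 fell, with a median of −0.15. Mvk, mevalonate kinase, rose by 0.35, while Ebp fell by 1.31 and Sc5d, a sterol desaturase, by 0.46. The Sc5d call ended without knockout 48 h replicate 2 (adjusted p = 0.0582) or knockout 2iL replicate 2 (0.0501). The 7 that fell were 4 without either knockout 48 h library or without knockout 2iL replicate 2. For the difference of changes 9 were negative and 1 positive (Ebp, 0.94), with a median of −0.64.

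**Figure D4:**
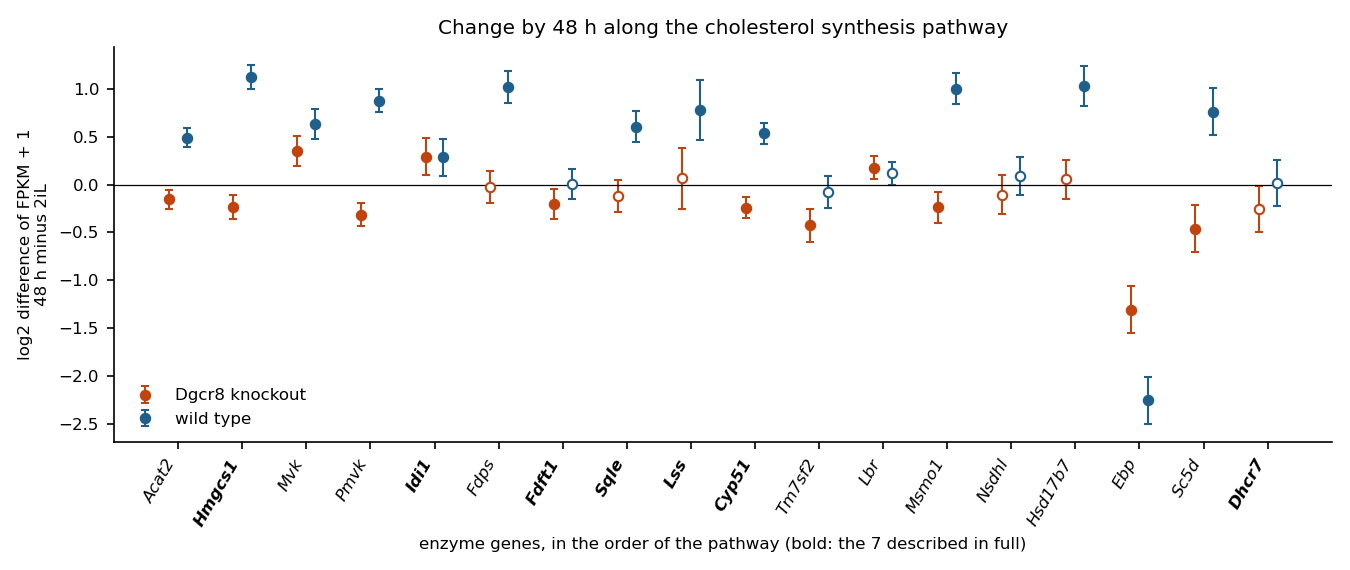
Log2(FPKM + 1) difference of 48 h minus 2iL (y axis) for 18 of the 20 synthesis enzymes in the order of the pathway (x axis), in knockout (orange) and wild-type cells (blue), with 95% intervals; filled points are called and open points are not. In knockout cells 3 of these 18 rose and 9 fell, and in wild-type cells 12 rose and Ebp fell by 2.25.

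The regulators of SREBP were a list of 9, all tested. In knockout cells 3 rose and 1 fell at 48 h, and in wild-type cells 4 rose and 1 fell; over all entries 26.5% and 30.9% were called higher. Srebf1, the gene of SREBP1, was the one that fell in each, averaging 22.5 FPKM at 48 h against 43.9 in 2iL in knockout cells (−0.93, limma adjusted p = 4.9e-05) and 26.4 against 42.0 FPKM in wild-type cells (−0.65, limma adjusted p = 1.9e-04). Srebf2, the gene of SREBP2, averaged 54.9 FPKM in knockout cells at 48 h, 58.9 in knockout cells in 2iL, 70.7 in wild-type cells at 48 h and 56.7 in wild-type cells in 2iL. It rose by 0.31 in wild-type cells (limma adjusted p = 4.7e-04) and changed by −0.10 in knockout cells (limma adjusted p = 0.0807), with a difference of changes of −0.41 (limma adjusted p = 0.00122). Scap rose by 0.44 in knockout and 0.54 in wild-type cells, and was higher in knockout cells in 2iL (0.47) and at 48 h (0.38).

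Between genotypes 1 regulator was higher and 2 lower in knockout cells in 2iL, and 2 were higher and 5 lower at 48 h. Over all entries 30.6% were called higher and 32.8% lower in 2iL, and 33.3% and 38.5% at 48 h. Srebf2 differed by 0.06 in 2iL (limma adjusted p = 0.272) and by −0.36 at 48 h (limma adjusted p = 1.5e-04). Mbtps1, the first of the Golgi proteases, was lower in knockout cells in 2iL (−0.34). Insig2, the paralog of Insig1, averaged 8.16 FPKM in knockout and 10.9 FPKM in wild-type cells at 48 h (−0.38, limma adjusted p = 0.0291). This call ended without any 1 of the 4 libraries at 48 h (adjusted p 0.0554 to 0.127), with no filter (0.0657) and with median-ratio scaling (0.0556). The 5 lower at 48 h were 3 without any 1 of the 4 libraries at 48 h, the 2 higher were 1 without knockout or wild-type replicate 2 at 48 h or with no filter, and the 2 lower in 2iL were 1 without either knockout library or without wild-type replicate 2. For the difference of changes 0 were positive and 2 negative, among them Srebf2; the medians in the 5 comparisons lay between −0.22 and 0.15.

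Cholesterol uptake and transport was a list of 9 genes, all tested. In knockout cells 0 rose and 7 fell at 48 h (median −0.30), and in wild-type cells 4 rose and 3 fell (median 0.09). Shares of all entries were 26.5% higher and 21.8% lower in knockout cells, and 30.9% and 25.6% in wild-type cells. Vldlr, a lipoprotein receptor, averaged 0.421 FPKM in knockout and 7.96 FPKM in wild-type cells at 48 h (−2.65, limma adjusted p = 2.0e-06). Npc2, which carries cholesterol out of lysosomes, fell by 1.62 in knockout and 1.37 in wild-type cells. Scarb1, a receptor for high-density lipoprotein, fell by 0.84 in knockout cells, and its change in wild-type cells was 0.01. Between genotypes 4 were higher and 3 lower in knockout cells in 2iL (1 lower without wild-type replicate 1), and 2 were higher and 5 lower at 48 h (median −0.77). Over all entries 30.6% were called higher and 32.8% lower in 2iL, and 33.3% and 38.5% at 48 h. Among the differences of changes, 6 were called negative and 0 positive, with Vldlr at −2.39. Of all entries 21.7% were called negative and 21.1% positive.

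Efflux and storage was a list of 7, mostly targets of the sterol-sensing LXR receptors, of which 6 were tested and Nr1h3, an LXR gene, did not pass the filter. At 48 h 5 were higher and 1 lower in knockout than in wild-type cells (median 0.82), and in 2iL 3 were higher and 0 lower (median 0.71). Shares of all entries were 33.3% higher and 38.5% lower at 48 h, and 30.6% and 32.8% in 2iL. Abca1, the exporter that loads cholesterol onto apolipoprotein, averaged 3.28 FPKM in knockout and 0.128 FPKM in wild-type cells at 48 h (1.91, limma adjusted p = 2.1e-05), and 4.73 and 0.883 FPKM in 2iL (1.60, limma adjusted p = 7.5e-05). Mylip, a ubiquitin ligase that degrades lipoprotein receptors, averaged 8.27 FPKM in knockout and 1.58 FPKM in wild-type cells at 48 h (1.84, limma adjusted p = 1.0e-06). The one lower was Soat1, which esterifies cholesterol for storage, at 6.48 FPKM in knockout and 36.0 FPKM in wild-type cells (−2.30, limma adjusted p = 2.5e-05). In 2iL Soat1 averaged 4.69 FPKM in knockout and 5.20 FPKM in wild-type cells, and it rose by 2.58 in wild-type cells at 48 h. Apoe, an apolipoprotein, fell at 48 h by 1.63 in knockout and by 1.99 in wild-type cells. In knockout cells 0 rose and 3 fell (median −0.25), and in wild-type cells 1 rose and 4 fell (median −0.46). Shares of all entries were 26.5% higher and 21.8% lower in knockout cells, and 30.9% and 25.6% in wild-type cells. Of the 3 knockout falls 1 was Abca1 (−0.43, limma adjusted p = 0.0465). That call ended with a pseudocount of 0.1 (adjusted p = 0.137), no filter (0.102) and only the groups compared (0.0988). Without knockout 48 h replicate 2 the Abca1 value was −0.23. The difference of changes was positive for Apoe (0.36) and negative for Soat1 (−2.17), with a list median of 0.21. Of all entries 21.1% were called positive and 21.7% negative.

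Fatty acid synthesis, which SREBP1 is known to drive, was a list of 10, all tested. In knockout cells 0 rose and 6 fell at 48 h (median −0.45), and in wild-type cells 5 rose and 4 fell (median 0.13). Shares of all entries were 26.5% higher and 21.8% lower in knockout cells, and 30.9% and 25.6% in wild-type cells. Fasn, fatty acid synthase, averaged 73.9 FPKM in knockout cells at 48 h, 129 in knockout cells in 2iL, 173 in wild-type cells at 48 h and 126 in wild-type cells in 2iL. It fell by 0.80 in knockout cells and rose by 0.45 in wild-type cells, with a difference of changes of −1.25 (limma adjusted p = 1.0e-05). Scd1 and Scd2, closely related desaturases whose reads the counting could share, fell in both genotypes, Scd1 by 1.70 in knockout and 0.44 in wild-type cells. The difference of changes was negative for 9 and positive for 1 (Acss2, which makes acetyl-CoA from acetate, 0.55), with a median of −0.66. Of all entries 21.7% were called negative and 21.1% positive. Between genotypes 4 were higher and 2 lower in knockout cells in 2iL, or 7 higher with either quantile or median-ratio scaling. At 48 h 3 were higher and 6 lower. Over all entries 30.6% were called higher and 32.8% lower in 2iL, and 33.3% and 38.5% at 48 h. Acss2 averaged 10.6 FPKM in knockout and 2.82 FPKM in wild-type cells at 48 h (1.60), and Scd1 17.1 and 50.7 FPKM (−1.51). The 3 higher at 48 h were 1 without any 1 of the 4 libraries at 48 h.

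The isoprenoid branch, which leads from the pathway to prenylated proteins, dolichol and ubiquinone, was a list of 6, all tested, with medians of 0.01 to 0.09 in the 5 comparisons. In knockout cells 1 rose and 0 fell at 48 h, and in wild-type cells 0 rose and 2 fell. In knockout against wild-type cells 2 were higher and 2 lower both in 2iL and at 48 h. These counts stand near the shares of all entries, 30.6% higher and 32.8% lower in 2iL and 33.3% and 38.5% at 48 h. Fntb, the beta subunit of protein farnesyltransferase, averaged 57.2 FPKM in knockout and 19.3 FPKM in wild-type cells at 48 h (1.52, limma adjusted p = 7.6e-07), while Fnta, the alpha subunit, averaged 42.7 and 56.8 FPKM (−0.40, limma adjusted p = 7.2e-05). Fntb fell by 1.00 in wild-type cells, and it held the 1 call of the list for the difference of changes (1.11). Leaving out 1 library moved the counts of this list between 0 and 2.

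**Figure D5:**
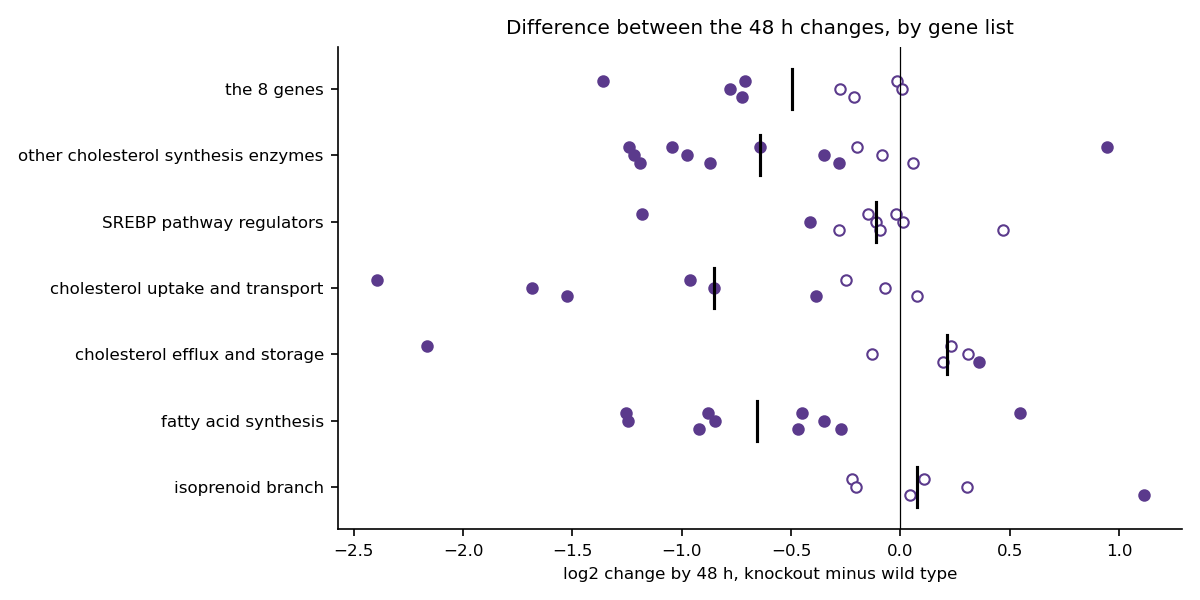
Difference of changes (48 h change in knockout minus that in wild-type cells, log2 scale) of the genes of each list; filled points are called, open points are not and vertical bars are list medians. These are −0.49 for the 8 genes, −0.64 for the other enzymes, −0.11 for the regulators, −0.85 for uptake, 0.21 for efflux and storage, −0.66 for fatty acid synthesis and 0.08 for the isoprenoid branch.

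The 8 genes did not share one pattern. Pearson correlations over the 8 libraries between each gene and the mean of the 8 standardised patterns, to which each contributes, were 0.95 for Lss, 0.94 for Cyp51, 0.86 for Dhcr7, 0.85 for Fdft1, 0.85 for Hmgcs1, 0.76 for Sqle, 0.61 for Idi1 and −0.31 for Insig1. The libraries fall into 4 groups, so these are descriptions. Among 8538 other genes with a mean of at least 5 FPKM, the 10 most alike were Dusp7 (0.995), Cyb5r1 (0.993), Tubb5 (0.992), Carm1 (0.990), Pnpla2 (0.989), Arfrp1 (0.988), Actr6 (0.987), Pmvk (0.986), Sfmbt2 (0.985) and Gusb (0.985). Only Pmvk was in one of the lists. Dusp7, a phosphatase of MAP kinases, averaged 2.96 FPKM in knockout cells at 48 h, 4.00 in knockout cells in 2iL, 10.2 in wild-type cells at 48 h and 5.24 in wild-type cells in 2iL.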

How the data were processed

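Polyadenylated RNA was extracted with Trizol and made into strand-marked (dUTP) libraries, per the labels' protocols. STAR 2.5.0, Cufflinks 2.2.1 and the build mm10 are named in the submitters' processing notes, and the authors deposited FPKM per gene; the annotation, the use of strand and read totals were not given in the sources used here. FPKM is relative to each library's total, so a change in a few abundant genes shifts all others. Of 41258 entries 40124 were matched to a symbol by Ensembl identifier. Entries that reached 1 FPKM in 2 or more libraries (13172) were tested as log2(FPKM + 1), a pseudocount of 1 that understates changes of low genes, with limma 3.58.1 in R 4.3.3 (4 group means, intensity trend, residual degrees of freedom 4, prior degrees of freedom 3.11). Standard errors had a median of 0.0882 for differences between groups and 0.125 for differences of changes, in log2 units; the number of reads behind each value, and so its counting error, is unknown. Called means a Benjamini-Hochberg adjusted p below 0.05. Tables and promoters were handled with Python 3.11.15, pandas 2.3.3 and numpy 2.4.6, and figures with matplotlib 3.10.9. The fit was tested on simulated data.

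The genes and lists (other synthesis enzymes, SREBP regulators, uptake and transport, efflux and storage, fatty acid synthesis, isoprenoid branch, and cell type markers) were chosen by name, with earlier results of these data known. Of each list, up to 2 genes called higher and 2 called lower with the largest difference in a comparison could be named, and Srebf1, Srebf2, Scap and Insig2 whatever they did; some genes that this rule names are counted in their lists but not reported here by name; the 10 most alike genes were ranked by Pearson correlation. Alternatives were a pseudocount of 0.1, no filter, a mean of at least 5 FPKM, quantile and median-ratio scaling, no intensity trend, a fit of only the groups compared, a replicate block, and leaving out each library in turn. With 1 library left in a group, it is assumed to vary like the other groups. Small RNA libraries were left out, since they hold wild-type cells only.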

Additional observations from a re-analysis of the deposited data

Results flagged for a closer look

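The change at 48 h differed between genotypes for 4 of the 8 genes, by the test of the difference itself (limma, adjusted over all 13172 entries, of which 21.1% were called positive and 21.7% negative). The change in knockout minus that in wild-type cells was −1.36 for Hmgcs1 (adjusted p = 1.9e-05), −0.73 for Sqle (adjusted p = 0.00105), −0.71 for Lss (adjusted p = 0.0202) and −0.78 for Cyp51 (adjusted p = 1.3e-04) on the log2 scale. In each of these genes both wild-type libraries at 48 h lay above all other libraries. That order is read from the same libraries as the test and adds no support to it. Idi1, whose difference of changes was not called, showed the same order. How many of the 13172 entries showed this order was not counted, so the order is a description only.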

How the results depend on the processing

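Of 632 values of the 8 genes under alternatives, 561 kept their direction and their side of the threshold, 43 kept the direction and lost the call, 15 kept it and gained a call, and 13 changed sign, none of them called in either fit (adjusted p 0.464 to 0.946). When leaving out a library, the knockout change of Lss (0.06) ranged from −0.067 to 0.19. The wild-type change of Fdft1 (0.01) was −0.040 with median-ratio scaling and −0.040 to 0.052 when leaving out a library, and that of Dhcr7 (0.02) was −0.028 with median-ratio scaling and −0.019 to 0.054 when leaving out a library. The difference of changes of Idi1 (0.01) was −0.026 with quantile scaling and −0.11 to 0.12 when leaving out a library, and that of Insig1 (−0.02) was −0.067 to 0.033 when leaving out a library. For 48 h against 2iL in knockout cells, the genes called higher (1) were 0 with no filter, with median-ratio scaling, with only the groups compared, and 0 to 1 when leaving out a library, and the 4 called lower were 2 to 5. In 2iL, the genes higher in knockout than in wild-type cells (2) were 4 with quantile scaling, 4 with median-ratio scaling, 1 with only the groups compared and 1 to 3 when leaving out a library. At 48 h, the genes higher in knockout cells (0) were 1 with quantile scaling, 1 with median-ratio scaling and 0 to 1 when leaving out a library; the gene gained was Insig1. With a mean of at least 5 FPKM fewer entries were tested, and those called higher numbered 2280 in knockout and 2450 in wild-type cells for 48 h against 2iL (3490 and 4074 in the reported fit), 2532 in 2iL and 2893 at 48 h between genotypes (4034 and 4389); those with a negative difference of changes numbered 1607 (2858). The cause of the other shifts was not tested. Libraries were not paired by replicate number, since the labels name no shared batch and deviations of same-numbered libraries were correlated at −0.153 to 0.180; with a replicate block the counts for the 8 genes were 1 higher and 3 lower in knockout cells, where Fdft1 lost its call (adjusted p = 0.0632), and 5 higher and 1 lower in wild-type cells, 2 and 4 in 2iL, 0 and 7 at 48 h, and 0 and 4 for the difference of changes, as in the reported fit. Absolute depth is unknown, which limits what can be said of genes near 1 FPKM such as Vldlr in knockout cells.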
